A study of Homo sapiens with 9 samples.

Results

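Homologous recombination repairs DNA double-strand breaks by copying the sister chromatid, and the Fanconi anaemia pathway removes crosslinks between the strands of DNA and hands the resulting breaks to recombination. Expression of 38 genes of these pathways was described here in the DU145 line, which was derived from a human prostate carcinoma. The genes were taken as a list of names, and all 38 were found among the 16772 genes of the deposited table. They are many of the main factors and not the whole pathway.

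Cells labelled as wild type were cultured for 6 days in medium with serum that was changed daily, under 1 of 3 treatments with 3 libraries each. The groups were DMSO alone as the solvent control, the compound H93 at 20 µM dissolved in DMSO, and the histone deacetylase inhibitor SAHA, also called vorinostat, at 500 nM dissolved in DMSO. The labels write the SAHA dose in nm, read here as nanomolar. The series title describes H93 as aimed at UHRF1, which brings DNA methyltransferase to newly copied DNA, and the design sets H93 against SAHA and against DMSO. Each compound was used at 1 dose and the doses differ, so a difference between the compounds belongs to these doses. Whether the replicates came from separate cultures is not stated in the labels, so the spread behind each p-value may be only technical.

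In recombination, the MRE11-RAD50-NBN complex and its partners trim the broken ends, the BRCA1 and BRCA2 complexes load the recombinase onto the exposed strand, and helper proteins drive strand exchange before helicases and nucleases resolve the joined molecules. In the Fanconi pathway a core complex attaches ubiquitin to the pair FANCD2 and FANCI, the step that starts crosslink repair. The kinases ATM and ATR sense damage and act through CHEK2 and CHEK1. Many of these genes are transcribed mainly in late G1, S and G2 phase, under E2F factors and related regulators. In bulk RNA, fewer cells in a cycle phase and less RNA per cell cannot be told apart.

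Stretches of 6 promoters of the 38 genes are printed, upstream of the RefSeq transcription start of GRCh38.p14 and free of annotated exons. Capitals mark matches on either strand to an E2F core (TTCCCGC or TTGGCGC or TTCGCGC or TTGCCGC), a CHR element (TTTGAA or TTCGAA) or a CCAAT box (CCAAT). The first 4 belong to genes that were lower in H93 and hold an E2F core. The last 2 belong to genes that were not lower and hold CCAAT boxes without that core. They were picked after the expression values were seen.
FANCC, chr9:95317740-95317889, minus strand: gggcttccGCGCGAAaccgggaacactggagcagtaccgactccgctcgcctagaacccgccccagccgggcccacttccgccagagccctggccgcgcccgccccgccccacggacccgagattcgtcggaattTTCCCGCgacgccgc
FANCA, chr16:89816668-89816827, minus strand: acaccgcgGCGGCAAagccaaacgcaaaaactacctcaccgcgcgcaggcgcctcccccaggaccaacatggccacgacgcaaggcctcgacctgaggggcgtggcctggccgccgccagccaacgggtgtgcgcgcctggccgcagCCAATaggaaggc
RAD54L, chr1:46247598-46247677, plus strand: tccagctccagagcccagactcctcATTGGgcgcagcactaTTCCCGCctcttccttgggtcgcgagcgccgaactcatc
BLM, chr15:90717196-90717310, plus strand: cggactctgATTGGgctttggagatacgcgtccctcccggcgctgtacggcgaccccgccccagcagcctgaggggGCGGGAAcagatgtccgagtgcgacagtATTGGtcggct
UBE2T, chr1:202341997-202342096, minus strand: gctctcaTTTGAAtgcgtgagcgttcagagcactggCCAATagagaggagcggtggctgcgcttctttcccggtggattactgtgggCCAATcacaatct
FANCM, chr14:45135715-45135869, plus strand: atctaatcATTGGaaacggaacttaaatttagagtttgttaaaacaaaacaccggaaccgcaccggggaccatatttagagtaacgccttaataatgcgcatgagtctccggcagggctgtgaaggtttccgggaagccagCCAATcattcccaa

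Values are FPKM, which is scaled for transcript length and library size, and differences were taken as log2(FPKM + 1), where a low gene's change comes out too small. The 9 libraries summed to between 348656 and 355741 FPKM and detected between 14910 and 15295 genes. Absolute depth was unknown, and the steps visible in low values put the relative depths between 0.875 and 1 of the deepest library. Correlations across tested genes lay between 0.9976 and 0.9983 for replicates and between 0.972 and 0.973 for DMSO and H93. Of 5 epithelial markers all reached 1 FPKM, with sums of 1583 to 1623 FPKM in DMSO, 1827 to 1864 in H93 and 1751 to 1827 in SAHA. Of 7 markers of leukocytes, endothelium and fibroblasts 6 were in the table, with sums of 2.37 to 3.10 FPKM in DMSO, 3.53 to 3.90 in H93 and 3.45 to 4.40 in SAHA. The leukocyte marker PTPRC and the endothelial marker PECAM1 had no more than 0.0179 and 0.0377 FPKM. The collagen gene COL1A1, the 1 of the 6 that reached 1 FPKM, rose from 2.24 ± 0.301 to 3.20 ± 0.230 in H93 (limma adjusted p = 0.000885) and 3.25 ± 0.359 in SAHA (limma adjusted p = 0.00097). Of the epithelial markers EPCAM fell from 67.1 ± 0.918 to 30.4 ± 1.08, CDH1 fell from 13.3 ± 0.0427 to 4.34 ± 0.334 and KRT19 rose from 169 ± 1.59 to 420.4 ± 2.95 in H93 (mean ± SD, n = 3 each). These were the 3 of the 5 that changed 2-fold in H93. In SAHA EPCAM was at 37.8 ± 1.86, CDH1 at 5.09 ± 0.199 and KRT19 at 326 ± 10.8. Part of the cells' marker pattern thus moved with treatment, and its part in the results below was not tested.

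All 38 genes passed the filter of at least 1 FPKM in at least 3 of the 9 libraries, the closest to it being FANCB, which lay between 1.02 and 1.34 throughout. In DMSO their mean levels ran from 1.26 ± 0.0925 for FANCB to 49.9 ± 3.01 for UBE2T, with a median of 11.3 against 10.1 for all tested genes. UBE2T, which encodes the E2 enzyme of the Fanconi pathway, stood above FANCG (31.7 ± 1.15) and FANCI (31.4 ± 0.479), whose DMSO libraries overlapped each other. At the low end were FANCB, RAD54B (2.70 ± 0.216) and FANCF (2.72 ± 0.243). BRCA2 (4.91 ± 0.194) was lower than BRCA1 (12.4 ± 0.343) in all 3 DMSO libraries. Of the 37 neighbouring pairs in the DMSO order, 16 had libraries that did not overlap and the rest were not separated by their spread. The coefficient of variation within a group had a median of 4.89% for genes under 5 FPKM and 3.38% above that.

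**Figure D1:**
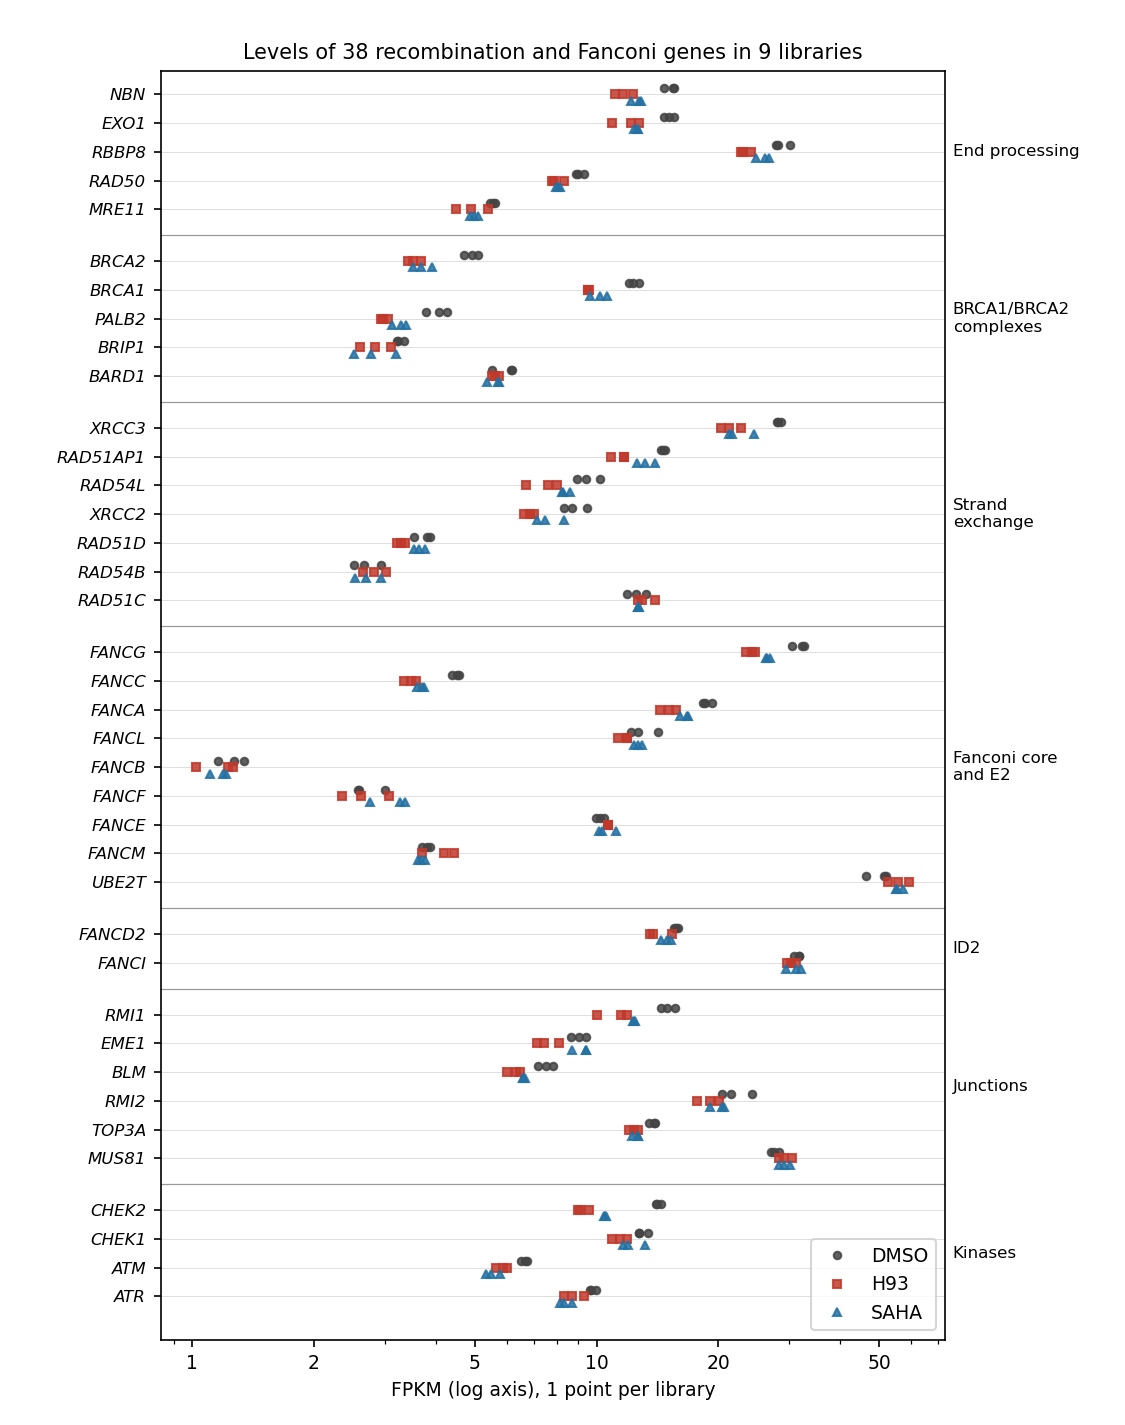
FPKM (log axis) of the 38 genes in each of the 9 libraries, grouped by role, with 1 point per library for DMSO, H93 and SAHA. CHEK2 lies at 14.0 to 14.4 in DMSO and 8.97 to 9.57 in H93, while the libraries of FANCI overlap between all groups.

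After H93, 27 of the 38 genes fell and 2 rose against DMSO, at a limma adjusted p under 0.05. Among all 11525 tested genes 69.8% were called, 35.0% lower and 34.9% higher, so most genes moved by this test. None of the 38 changed 2-fold, where 0.816% of all tested genes fell and 1.47% rose by that much. The median log2 difference of the 38 genes was -0.17, beside 0.00157 for all tested genes. The difference was negative for 32 of them. Groups did not overlap for 28 of the genes on the lower side and 3 on the higher side, where 36.8% and 36.4% of all tested genes did so (73.2% in all). After SAHA, 20 of the 38 fell and 1 rose, where 31.4% and 27.4% of all tested genes did (58.8% in all), with a median of -0.14 beside -0.01. None changed 2-fold with SAHA, where 0.373% of all tested genes fell and 0.746% rose by that much. SAHA and DMSO did not overlap for 22 of the genes on the lower side and 2 on the higher side, beside 34.4% and 29.7% of all tested genes (64.1% in all). No gene of the 38 rose under one compound and fell under the other. The 2 comparisons share the DMSO libraries, so their values are not independent of each other.

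**Figure D2:**
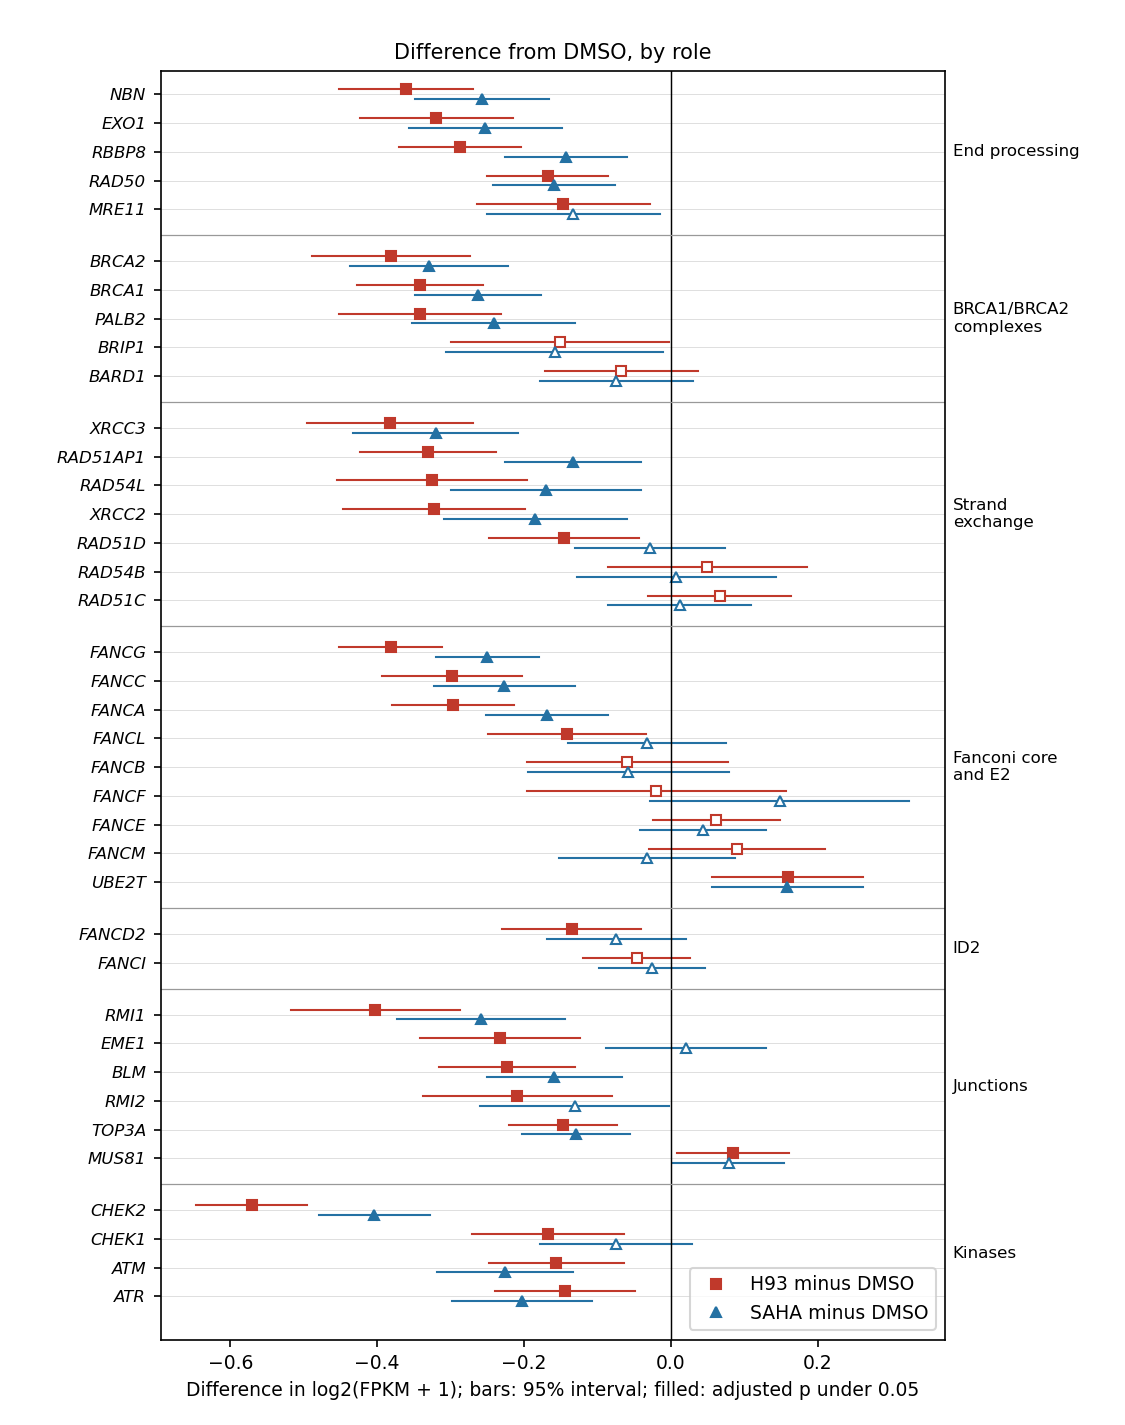
Difference in log2(FPKM + 1) of H93 and of SAHA from DMSO for the 38 genes by role, with 95% intervals from limma; filled points had an adjusted p under 0.05. The widest drop is that of CHEK2 (-0.57 in H93 and -0.40 in SAHA), and UBE2T and MUS81 lie to the right of 0 in both.

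**Figure D3:**
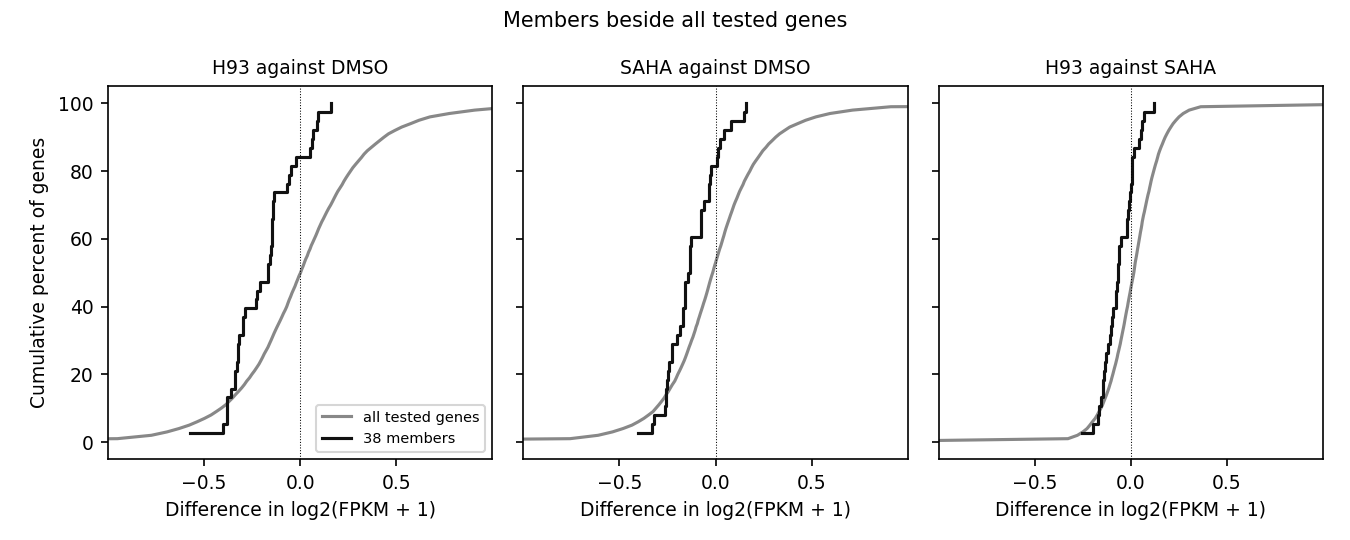
Cumulative percent of genes against the difference in log2(FPKM + 1), for the 38 genes (black steps) and all tested genes (grey), in 3 comparisons. The median of the 38 genes lies at -0.17, -0.14 and -0.07, and the tails of all genes reach farther than those of the 38.

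Among the checkpoint kinases all 4 fell with H93 and 3 fell with SAHA, beside 35.0% and 31.4% of all tested genes. CHEK2, the kinase activated by ATM, stood at 14.0, 14.1 and 14.4 in DMSO, 8.97, 9.57 and 9.12 in H93 and 10.4, 10.5 and 10.5 in SAHA. No library of either treatment reached the DMSO range, and the H93 libraries were below all SAHA libraries. It had a log2 difference of -0.57 (SE 0.0345, limma adjusted p = 1.98e-08) for H93 and a log2 difference of -0.40 (SE 0.0345, limma adjusted p = 8.89e-07) for SAHA, a mean lower than DMSO by 35.0% and 26.1%. CHEK2 lies on chromosome 22 from 28687743 to 28742422 (GRCh38, GENCODE release 29), and it has 4 annotated pseudogenes by name, so it is uncertain if reads were split between copies. FANCD2, MRE11, RBBP8 and RAD51AP1 each have 1 such annotated pseudogene. ATM, the kinase that responds to double-strand breaks, stood at 6.71, 6.63 and 6.51 in DMSO, 5.64, 6.00 and 5.88 in H93 and 5.47, 5.76 and 5.32 in SAHA. Both treated groups lay below DMSO, with a log2 difference of -0.16 (SE 0.0423, limma adjusted p = 0.0054) in H93 and a log2 difference of -0.23 (SE 0.0423, limma adjusted p = 0.000597) in SAHA. ATR, the kinase of stalled forks, was at 9.66, 9.98 and 9.70 in DMSO, 9.30, 8.68 and 8.32 in H93 and 8.69, 8.12 and 8.31 in SAHA. It fell in H93 (log2 difference -0.14, SE 0.0438, limma adjusted p = 0.0108) and in SAHA (log2 difference -0.20, SE 0.0438, limma adjusted p = 0.00169), and the H93 call was lost without H93 replicate 3 (limma adjusted p = 0.0510). CHEK1, the kinase downstream of ATR, went down in H93, from 13.0 ± 0.368 to 11.4 ± 0.482 (log2 difference -0.17, SE 0.0475, limma adjusted p = 0.00743). In SAHA it was at 12.3 ± 0.828 with an overlapping range (log2 difference -0.07, SE 0.0475, limma adjusted p = 0.196), and passed without SAHA replicate 1 (limma adjusted p = 0.0300).

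The ratio of CHEK2 to ATM, both per length, was 2.14 ± 0.0647 in DMSO, 1.58 ± 0.0240 in H93 and 1.90 ± 0.0711 in SAHA (n = 3 each), with no overlap between groups. That of CHEK1 to ATR was 1.32 ± 0.0518 in DMSO, 1.31 ± 0.0714 in H93 and 1.46 ± 0.0485 in SAHA. Its SAHA libraries lay above all others, while DMSO and H93 overlapped. Neither these ratios nor those given below were tested.

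Of the 5 genes for processing broken ends all 5 fell with H93 and 4 with SAHA, beside 35.0% and 31.4% of all tested genes. NBN, the subunit that recruits ATM, stood at 14.7, 15.5 and 15.6 in DMSO, 12.3, 11.6 and 11.1 in H93 and 12.2, 12.9 and 12.7 in SAHA. DMSO lay above both treated groups, with a log2 difference of -0.36 (SE 0.0419, limma adjusted p = 7.37e-06) for H93 and a log2 difference of -0.26 (SE 0.0419, limma adjusted p = 0.000204) for SAHA. RAD50, the long coiled-coil subunit, fell from 9.07 ± 0.198 to 7.96 ± 0.287 in H93 and 8.02 ± 0.0896 in SAHA. MRE11, the nuclease subunit, was at 5.54, 5.62 and 5.46 in DMSO, 5.40, 4.88 and 4.48 in H93 and 5.08, 4.96 and 4.85 in SAHA. Its fall in H93 was small (log2 difference -0.15, SE 0.0541, limma adjusted p = 0.0289) and did not hold without DMSO replicate 1 (0.0609), DMSO replicate 2 (0.0749), H93 replicate 2 (0.0656) or H93 replicate 3 (0.135), or without the low-value filter (0.0525), all limma adjusted p. In SAHA it missed the threshold (log2 difference -0.13, SE 0.0541, limma adjusted p = 0.0516) and passed without H93 replicate 1 (0.0246) or H93 replicate 3 (0.0276), with only the 6 libraries compared (0.0224) and with a mean FPKM of at least 5 (0.0451), again as limma adjusted p. EXO1, the exonuclease that extends the trimmed strand, stood at 15.1, 15.6 and 14.7 in DMSO, 12.2, 12.8 and 10.9 in H93 and 12.6, 12.6 and 12.4 in SAHA. It fell in both, with a log2 difference of -0.32 (SE 0.0480, limma adjusted p = 7.06e-05) in H93 and a log2 difference of -0.25 (SE 0.0480, limma adjusted p = 0.000674) in SAHA. RBBP8, which encodes the resection factor CtIP, fell from 28.6 ± 1.19 to 23.3 ± 0.723 in H93 (log2 difference -0.29, SE 0.0381, limma adjusted p = 2.45e-05) and to 25.8 ± 0.947 in SAHA (log2 difference -0.14, SE 0.0381, limma adjusted p = 0.00627).

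In the BRCA1 and BRCA2 complexes BRCA1, BRCA2 and PALB2 fell with both compounds, whereas BARD1 and BRIP1 did not pass with either. Of all tested genes 35.0% fell with H93 and 31.4% with SAHA. BRCA1, the ubiquitin ligase that promotes end processing, stood at 12.7, 12.0 and 12.3 in DMSO, 9.51, 9.58 and 9.54 in H93 and 10.6, 10.2 and 9.63 in SAHA. All treated libraries were below the lowest DMSO library, with a log2 difference of -0.34 (SE 0.0394, limma adjusted p = 6.98e-06) for H93 and a log2 difference of -0.26 (SE 0.0394, limma adjusted p = 0.000106) for SAHA. BARD1, the obligate partner of BRCA1, was at 5.52, 6.13 and 6.17 in DMSO, 5.73, 5.52 and 5.61 in H93 and 5.72, 5.36 and 5.69 in SAHA. Its groups overlapped, with a log2 difference of -0.07 (SE 0.0477, limma adjusted p = 0.227) for H93 and a log2 difference of -0.07 (SE 0.0477, limma adjusted p = 0.202) for SAHA. The ratio of BRCA1 to BARD1 was 2.09 ± 0.186 in DMSO, 1.70 ± 0.0367 in H93 and 1.82 ± 0.109 in SAHA (n = 3 each). BRCA2, which loads the recombinase, stood at 4.71, 4.92 and 5.09 in DMSO, 3.67, 3.52 and 3.42 in H93 and 3.91, 3.68 and 3.52 in SAHA. Its DMSO libraries lay above all treated ones, and its mean was 27.9% lower in H93 and 24.6% lower in SAHA (log2 difference -0.38, SE 0.0495, limma adjusted p = 2.02e-05 for H93 and log2 difference -0.33, SE 0.0495, limma adjusted p = 0.000108 for SAHA). PALB2, the bridge between BRCA1 and BRCA2, was at 4.07, 4.27 and 3.78 in DMSO, 2.96, 3.04 and 2.92 in H93 and 3.28, 3.39 and 3.12 in SAHA. It fell in H93 (log2 difference -0.34, SE 0.0508, limma adjusted p = 6.42e-05) and in SAHA (log2 difference -0.24, SE 0.0508, limma adjusted p = 0.00138). The ratio of BRCA2 to PALB2 stayed within overlapping ranges, at 1.22 ± 0.112 in DMSO, 1.19 ± 0.0449 in H93 and 1.14 ± 0.0530 in SAHA. BRIP1, a helicase that binds BRCA1, was at 3.26 ± 0.0638 in DMSO, 2.84 ± 0.249 in H93 and 2.82 ± 0.337 in SAHA. Its limma adjusted p was 0.0651 in H93 and 0.0626 in SAHA. BRIP1 did pass in H93 without H93 replicate 1 (0.0321), SAHA replicate 2 (0.0369) or SAHA replicate 3 (0.0454), under quantile normalization (0.0327) and with only the 6 libraries compared (0.0375), and in SAHA without SAHA replicate 2 (0.0125), as limma adjusted p. BRCA1 lies on chromosome 17 from 43044295 to 43170245, BRCA2 on chromosome 13 from 32315474 to 32400266 and PALB2 on chromosome 16 from 23603160 to 23641310, in GRCh38 as annotated by GENCODE release 29.

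Of 7 strand exchange genes 5 fell with H93 and 4 with SAHA, beside 35.0% and 31.4% of all tested genes. Of the 7 genes 0 rose with either by the limma test, also at an unadjusted p under 0.05. XRCC3, a paralog of the recombinase, stood at 28.1, 28.6 and 27.9 in DMSO, 20.4, 22.7 and 21.2 in H93 and 24.6, 21.2 and 21.6 in SAHA. DMSO did not overlap with either treatment, with a log2 difference of -0.38 (SE 0.0518, limma adjusted p = 2.86e-05) for H93 and a log2 difference of -0.32 (SE 0.0518, limma adjusted p = 0.000193) for SAHA. Its exons share 5756 bases with exons of KLC1 on the opposite strand, at 50.2 FPKM in DMSO and 56.8 in H93. Since the use of strand in counting is not given in the sources used here, XRCC3 is uncertain. XRCC2, another paralog, was at 9.45, 8.68 and 8.30 in DMSO, 7.02, 6.86 and 6.63 in H93 and 8.33, 7.45 and 7.13 in SAHA. It fell in H93 (log2 difference -0.32, SE 0.0571, limma adjusted p = 0.000267). In SAHA its range overlapped with that of DMSO, and its call (log2 difference -0.18, SE 0.0571, limma adjusted p = 0.0145) was lost without DMSO replicate 1 (0.0685) or SAHA replicate 3 (0.0657), as limma adjusted p. RAD51C, the paralog common to several of these complexes, stood at 13.3, 12.5 and 11.9 in DMSO, 14.0, 12.9 and 12.7 in H93 and 12.8, 12.6 and 12.6 in SAHA. Its groups overlapped and it did not pass in H93 (log2 difference 0.07, SE 0.0447, limma adjusted p = 0.203) or SAHA (log2 difference 0.01, SE 0.0447, limma adjusted p = 0.827). The ratio of XRCC3 to RAD51C, which form one complex, was 2.25 ± 0.119 in DMSO, 1.63 ± 0.155 in H93 and 1.77 ± 0.136 in SAHA. RAD51D fell in H93 from 3.74 ± 0.173 to 3.28 ± 0.0678 (log2 difference -0.15, SE 0.0470, limma adjusted p = 0.015), a call lost without DMSO replicate 2 (limma adjusted p = 0.0585), and was at 3.65 ± 0.113 in SAHA (limma adjusted p = 0.622).

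RAD51AP1, a cofactor that stimulates strand pairing, stood at 14.6, 14.4 and 14.8 in DMSO, 10.8, 11.7 and 11.7 in H93 and 12.6, 14.0 and 13.1 in SAHA. The 3 groups did not overlap, with DMSO highest and H93 lowest. It had a log2 difference of -0.33 (SE 0.0424, limma adjusted p = 1.82e-05) for H93 and a log2 difference of -0.13 (SE 0.0424, limma adjusted p = 0.017) for SAHA, and the SAHA call was lost without DMSO replicate 3 (0.0523) or SAHA replicate 1 (0.0732), as limma adjusted p. RAD54L, a motor protein that drives strand exchange, was at 9.43, 10.2 and 8.93 in DMSO, 6.68, 7.58 and 7.97 in H93 and 8.24, 8.58 and 8.23 in SAHA. It fell in H93 (log2 difference -0.32, SE 0.0594, limma adjusted p = 0.000343). In SAHA (log2 difference -0.17, SE 0.0594, limma adjusted p = 0.027) the call was lost without DMSO replicate 1 (0.0505), DMSO replicate 2 (0.117), SAHA replicate 1 (0.0669) or SAHA replicate 3 (0.0707), and without the low-value filter (0.0598), as limma adjusted p. Exons of RAD54L share 806 bases with LRRC41 on the opposite strand, so RAD54L is uncertain as XRCC3 is. The mean of LRRC41 was 10.3 FPKM in DMSO, 8.20 in H93 and 8.18 in SAHA, lower with treatment as for RAD54L. Its relative RAD54B was at 2.70 ± 0.216 in DMSO, 2.83 ± 0.187 in H93 and 2.72 ± 0.198 in SAHA, with overlapping libraries and limma adjusted p of 0.493 and 0.927.

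Of the 8 Fanconi core subunits and the E2 enzyme, 4 fell and 1 rose with H93, and 3 fell and 1 rose with SAHA. The shares that fell were 44.4% and 33.3%, beside 35.0% and 31.4% of all tested genes. FANCG stood at 32.2, 30.4 and 32.5 in DMSO, 23.5, 24.2 and 24.6 in H93 and 26.3, 26.8 and 26.5 in SAHA. DMSO lay highest and H93 lowest without overlap, with a log2 difference of -0.38 (SE 0.0320, limma adjusted p = 3.85e-07) in H93 and a log2 difference of -0.25 (SE 0.0320, limma adjusted p = 2.89e-05) in SAHA. FANCA, which binds FANCG directly, fell from 18.7 ± 0.555 to 15.1 ± 0.660 in H93 (log2 difference -0.30, SE 0.0381, limma adjusted p = 1.83e-05) and to 16.6 ± 0.435 in SAHA (log2 difference -0.17, SE 0.0381, limma adjusted p = 0.00228). Exons of FANCA share 2302 bases with ZNF276 on the opposite strand (8.60 FPKM in DMSO, 6.49 in H93), so FANCA is uncertain in the same way. FANCC was at 4.38, 4.52 and 4.56 in DMSO, 3.48, 3.34 and 3.57 in H93 and 3.61, 3.71 and 3.75 in SAHA, lower in both treatments with no overlap (log2 difference -0.30, SE 0.0438, limma adjusted p = 5.87e-05 in H93 and log2 difference -0.23, SE 0.0438, limma adjusted p = 0.000763 in SAHA). FANCL, the ubiquitin ligase subunit, fell in H93 from 13.0 ± 1.07 to 11.7 ± 0.357 (log2 difference -0.14, SE 0.0495, limma adjusted p = 0.0225), a call lost without DMSO replicate 2 (0.106) or H93 replicate 3 (0.0813), as limma adjusted p.

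UBE2T, the E2 enzyme that works with FANCL, rose with both compounds and stood at 46.5, 51.8 and 51.5 in DMSO, 59.4, 55.8 and 52.4 in H93 and 55.0, 57.2 and 55.2 in SAHA. Both treated groups lay above DMSO, with a log2 difference of 0.16 (SE 0.0473, limma adjusted p = 0.00938) in H93 and a log2 difference of 0.16 (SE 0.0473, limma adjusted p = 0.0118) in SAHA. Without DMSO replicate 1, the lowest of the 9 libraries, the SAHA call was lost (limma adjusted p = 0.0539). FANCE was at 10.2, 9.97 and 10.4 in DMSO, 10.7, 10.7 and 10.7 in H93 and 10.1, 10.3 and 11.2 in SAHA, with a log2 difference of 0.06 (SE 0.0395, limma adjusted p = 0.178) in H93. FANCM, the helicase-like anchor of the complex on DNA, stood at 3.70, 3.80 and 3.86 in DMSO, 4.43, 3.70 and 4.20 in H93 and 3.61, 3.77 and 3.67 in SAHA, with a log2 difference of 0.09 (SE 0.0551, limma adjusted p = 0.162) in H93. Without H93 replicate 2 it passed (limma adjusted p = 0.0216). FANCF was at 2.58, 3.00 and 2.57 in DMSO, 2.35, 3.07 and 2.61 in H93 and 3.27, 2.75 and 3.35 in SAHA, with overlapping groups; it passed in SAHA without SAHA replicate 2 (limma adjusted p = 0.0467). FANCB, the lowest of all, was at 1.26 ± 0.0925 in DMSO, 1.17 ± 0.127 in H93 and 1.17 ± 0.0571 in SAHA. FANCB, FANCE, FANCF and FANCM did not pass in either comparison.

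Of FANCD2 and FANCI, the pair that receives ubiquitin, FANCD2 fell with H93, and neither passed with SAHA in the limma test, also at an unadjusted p under 0.05. By adjusted p 35.0% of all tested genes fell with H93 and 31.4% with SAHA. FANCD2 stood at 15.5, 15.8 and 15.9 in DMSO, 15.4, 13.6 and 13.8 in H93 and 15.3, 14.9 and 14.4 in SAHA. Its mean was 9.38% lower in H93 (log2 difference -0.13, SE 0.0437, limma adjusted p = 0.0149), a call lost without H93 replicate 2 (0.0706) or H93 replicate 3 (0.0560), as limma adjusted p. FANCI was at 31.7, 30.8 and 31.6 in DMSO, 30.3, 31.1 and 29.6 in H93 and 31.9, 31.1 and 29.4 in SAHA. Its groups overlapped, and the 95% interval of the log2 difference ran from -0.12 to 0.03 in H93 and from -0.10 to 0.05 in SAHA. The ratio of FANCD2 to FANCI was 0.501 ± 0.0112 in DMSO, 0.469 ± 0.0356 in H93 and 0.483 ± 0.00582 in SAHA.

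Of the 6 genes that dissolve or cut joined DNA molecules, 5 fell and 1 rose with H93 by the limma test. With SAHA 3 fell and 0 rose by that test. At an unadjusted p under 0.05 the SAHA counts were 4 and 1, where the share of all tested genes was not taken. By adjusted p 35.0% of all tested genes fell and 34.9% rose with H93, and 31.4% fell and 27.4% rose with SAHA. RMI1, a scaffold of the BLM dissolvasome, stood at 15.7, 14.4 and 14.9 in DMSO, 11.9, 10.0 and 11.5 in H93 and 12.3, 12.4 and 12.4 in SAHA. DMSO lay above both treated groups, with a log2 difference of -0.40 (SE 0.0527, limma adjusted p = 2.13e-05) in H93 and a log2 difference of -0.26 (SE 0.0527, limma adjusted p = 0.00111) in SAHA. BLM, the helicase of that complex, fell from 7.48 ± 0.318 to 6.27 ± 0.229 in H93 and 6.60 ± 0.0401 in SAHA. TOP3A, its topoisomerase, fell from 13.8 ± 0.263 to 12.3 ± 0.320 in H93 and 12.5 ± 0.237 in SAHA. RMI2, the small second scaffold, fell in H93 from 22.1 ± 1.94 to 18.9 ± 1.19 (log2 difference -0.21, SE 0.0591, limma adjusted p = 0.00702). In SAHA it was at 20.0 ± 0.884 (log2 difference -0.13, SE 0.0591, limma adjusted p = 0.0751) and passed without DMSO replicate 3 (limma adjusted p = 0.0243).

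MUS81 and EME1 form a nuclease, and in H93 the first rose slightly while the second fell. EME1, the non-catalytic subunit, stood at 9.39, 8.66 and 9.03 in DMSO, 7.14, 8.08 and 7.41 in H93 and 9.40, 9.42 and 8.70 in SAHA. The H93 libraries lay below all others, while SAHA overlapped with DMSO (log2 difference -0.23, SE 0.0499, limma adjusted p = 0.00114 in H93 and log2 difference 0.02, SE 0.0499, limma adjusted p = 0.737 in SAHA). MUS81, the catalytic subunit, was at 28.2, 27.5 and 26.9 in DMSO, 30.5, 28.3 and 29.1 in H93 and 30.1, 28.3 and 29.1 in SAHA. Its rise in H93 was small (log2 difference 0.08, SE 0.0348, limma adjusted p = 0.0456) and was lost with no low-value filter (0.0619) and without DMSO replicate 2 (0.0917), DMSO replicate 3 (0.147), H93 replicate 1 (0.191), H93 replicate 3 (0.0702) or SAHA replicate 3 (0.0558), as limma adjusted p. In SAHA it missed the threshold (log2 difference 0.08, SE 0.0348, limma adjusted p = 0.069) and passed without SAHA replicate 2 (0.0412), under median-ratio rescaling (0.0361) and under quantile normalization (0.0380), as limma adjusted p. The ratio of EME1 to MUS81 was 0.328 ± 0.0111 in DMSO, 0.258 ± 0.0261 in H93 and 0.315 ± 0.0173 in SAHA, with H93 below all other libraries. MUS81 shares 759 exon bases with CFL1, at 855 FPKM in DMSO, and EME1 shares 541 with LRRC59, at 187 FPKM, both on the opposite strand, as do FANCL with VRK2 (452 bases) and FANCI with POLG (458 bases), with the same uncertainty.

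Set directly against each other, H93 was lower than SAHA for 6 of the 38 genes and higher for 0, at a limma adjusted p under 0.05. At an unadjusted p under 0.05 these counts were 12 and 1, the latter FANCM. The share of all tested genes at that threshold was not taken. By adjusted p 31.5% of all tested genes were called, 13.9% lower and 17.6% higher in H93. Groups did not overlap for 15 of the 38 on the lower side and 0 on the higher side, beside 18.8% and 25.6% of all tested genes (44.4% in all). None of the 38 differed 2-fold, where 0.00868% of all tested genes were lower and 0.00868% higher by that much. The median log2 difference of H93 against SAHA was -0.07 for the 38 genes and 0.0159 for all tested genes. The 6 genes were EME1 (log2 difference -0.25, SE 0.0499, limma adjusted p = 0.00287), RAD51AP1 (log2 difference -0.20, SE 0.0424, limma adjusted p = 0.00472), CHEK2 (log2 difference -0.17, SE 0.0345, limma adjusted p = 0.00379), RBBP8 (log2 difference -0.14, SE 0.0381, limma adjusted p = 0.0141), FANCG (log2 difference -0.13, SE 0.0320, limma adjusted p = 0.00884) and FANCA (log2 difference -0.13, SE 0.0381, limma adjusted p = 0.0238). In none of the 6 did H93 and SAHA libraries overlap. The FANCA call was lost without H93 replicate 1 (0.0547), H93 replicate 2 (0.0960), SAHA replicate 1 (0.0690) or SAHA replicate 2 (0.0653), and that of RBBP8 without H93 replicate 1 (0.0533) or SAHA replicate 1 (0.0505), as limma adjusted p.

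For the other 32 genes the direct difference did not pass, which does not show that the compounds acted alike. The 95% interval ran from -0.16 to 0.01 for BRCA1, from -0.16 to 0.06 for BRCA2 and from -0.10 to 0.10 for UBE2T. Some of the 32 passed without 1 library. These were NBN (0.0386), RMI1 (0.0256) and FANCD2 (0.0490) without H93 replicate 1, FANCF (0.0453) and FANCM (0.0246) without H93 replicate 2, RAD54L (0.0321) without H93 replicate 3, FANCL (0.0432) without DMSO replicate 2 and XRCC2 (0.0496) without SAHA replicate 3, as limma adjusted p. Under quantile normalization 11 of the 38 genes were lower in H93, beside 1791 of all 11525 tested genes. Those gained were NBN (0.0493), RAD51D (0.0351), RAD54L (0.0315), RMI1 (0.0397) and XRCC2 (0.0474). RMI1 also passed under median-ratio rescaling (0.0401) and with a mean FPKM of at least 5 (0.0443), all limma adjusted p. ATM and ATR had positive differences of 0.07 and 0.06, with intervals from -0.02 to 0.16 and from -0.04 to 0.15.

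**Figure D4:**
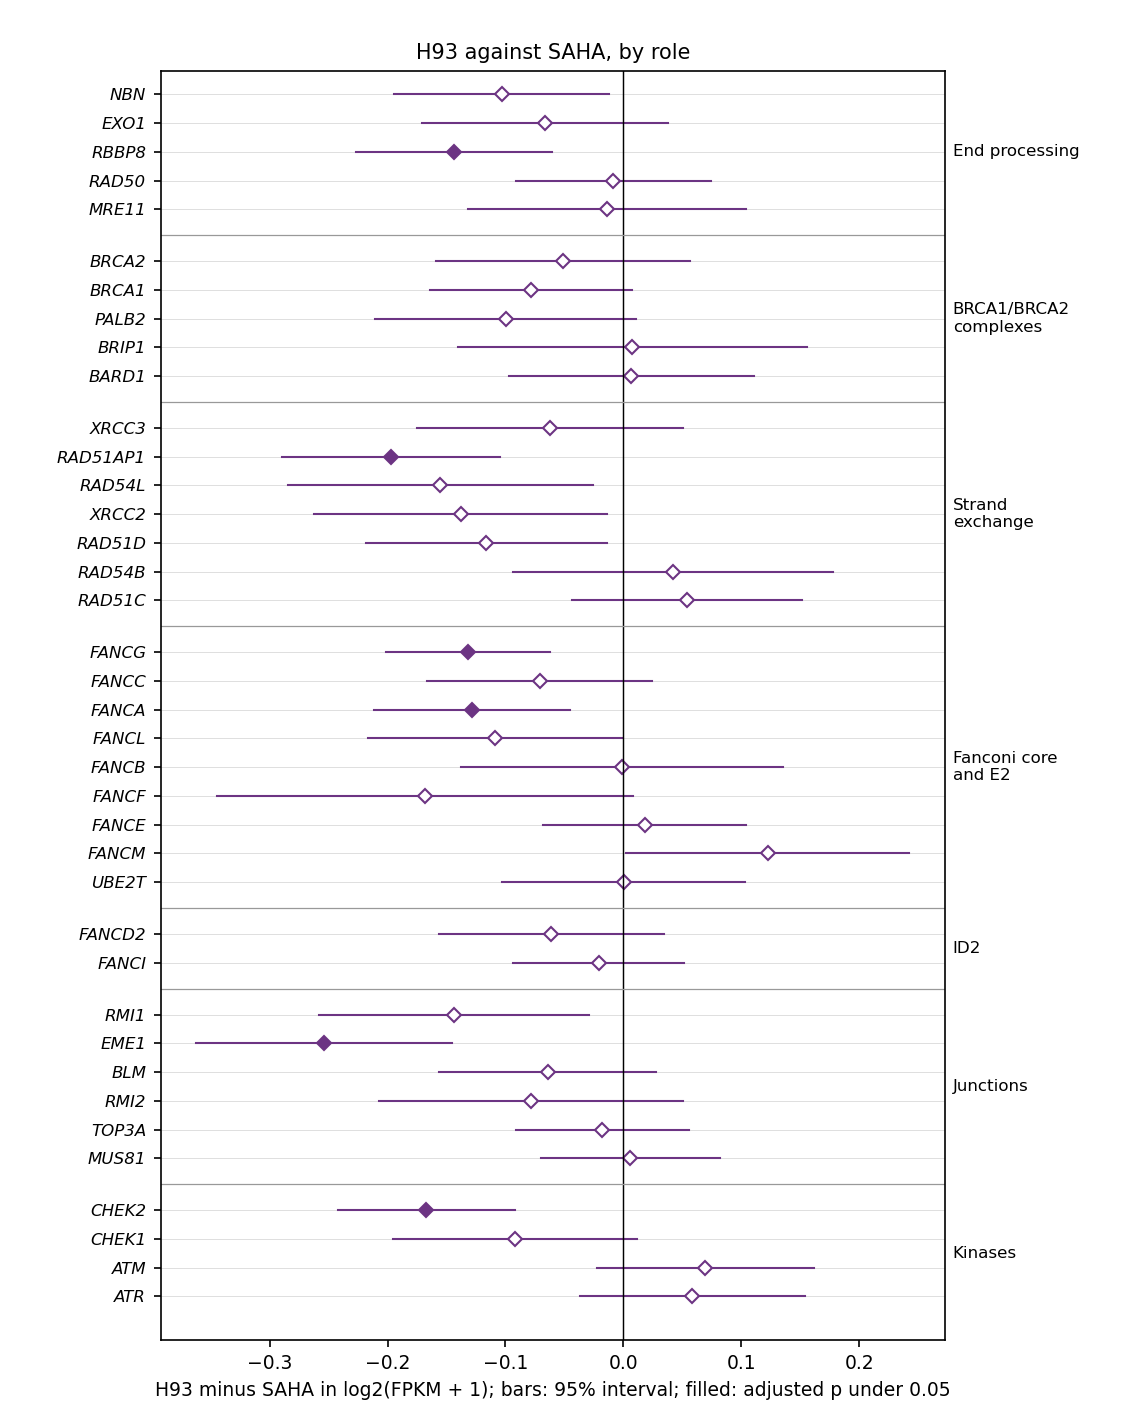
H93 minus SAHA in log2(FPKM + 1) for the 38 genes by role, with 95% intervals from limma; filled points had an adjusted p under 0.05. The 6 filled points all lie left of 0, with EME1 at -0.25 and RAD51AP1 at -0.20.

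RefSeq promoters of GRCh38.p14 were matched for 34 of the 38 genes. An E2F core within 250 bases upstream of a listed start was present in 12 of the 34 (35.3%), beside 13.0% of all 27305 genes with a promoter and 22.4% of 9528 tested genes. All 12 were among the 25 matched genes that fell in H93, of which they made up 48%, and none was among the 9 others. A gene counted with a match at any of its listed starts. Of the 25, ATM, BRCA1, CHEK1, EXO1, FANCC, RAD51D, RAD54L, RBBP8 and RMI1 had 2 or more listed starts. Of the 9 others only RAD51C did, so these sets were not searched evenly. Over all tested genes the share with a core was 24.4% for those that fell in H93 and 21.2% for the rest. The 12 genes were BLM, BRCA1, EME1, FANCA, FANCC, FANCG, FANCL, RAD51AP1, RAD51D, RAD54L, RMI1 and TOP3A. The H93 calls of FANCL and RAD51D did not hold without DMSO replicate 2, so the split depends on them. With SAHA the split did not hold, as EME1, FANCL and RAD51D were not called (limma adjusted p = 0.737, 0.598 and 0.622). A role of E2F factors was not tested. In the FANCC stretch above, 2 cores lie on opposite strands, while the stretches of RAD54L and BLM hold 1 core beside CCAAT boxes. CHEK2, which fell most, had 3 CCAAT boxes and no core in its window, and BRCA2 had none of the 3 motifs. CCAAT boxes were present in 17 of 34 genes, 12 of the 25 that fell and 5 of the 9 others, beside 37.0% of all genes and 42.0% of tested genes. CHR elements were present in 4 of 34 genes (11.8%), namely ATM, BRIP1, FANCC and UBE2T, beside 17.2% of all genes and 13.0% of tested genes. They were in 2 of the 25 that fell and 2 of the 9 others. These are counts of letters and not of binding sites.

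Of the 34 genes 17 had a RefSeq gene on the opposite strand starting within 1000 bases upstream, and for 12 of them that neighbour was in the expression table. NBR1, an autophagy receptor gene that starts 82 bases from an upstream start of BRCA1, rose from 25.0 ± 0.509 to 29.9 ± 0.288 in H93 and 29.5 ± 0.410 in SAHA, while BRCA1 fell. The E2F core of BRCA1 lies in the window of its other listed start (chr17:43125315-43125614), which faces NBR2 at 193 bases, a gene not analysed here. DCTN5, a dynactin subunit gene 156 bases from PALB2, rose from 6.19 ± 0.173 to 7.23 ± 0.236 in H93 and 6.76 ± 0.117 in SAHA, while PALB2 fell. FERRY3, listed in the table as C12orf4 and 421 bases from RAD51AP1, rose from 4.78 ± 0.458 to 6.90 ± 0.473 in H93 and 5.50 ± 0.311 in SAHA, while RAD51AP1 fell. NPAT, a coactivator of histone genes that starts 429 bases from ATM, rose from 4.92 ± 0.161 to 6.11 ± 0.179 in H93 while ATM fell, and was at 4.80 ± 0.305 in SAHA (limma adjusted p = 0.596).

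Other neighbours fell with the gene they face. HSCB, a cochaperone of iron-sulfur cluster assembly 212 bases from CHEK2, fell from 12.6 ± 0.891 to 9.40 ± 0.226 in H93 and 10.4 ± 0.189 in SAHA. ZFYVE21, 359 bases from XRCC3, fell from 26.3 ± 2.18 to 19.4 ± 0.507 in H93 and 19.6 ± 2.16 in SAHA. MRPL27, a mitochondrial ribosomal protein gene 45 bases from EME1, fell in H93 from 66.0 ± 4.49 to 53.4 ± 1.60 and was at 62.6 ± 2.06 in SAHA (limma adjusted p = 0.177), where EME1 did not pass either. HNRNPK, 144 bases from RMI1, fell from 273 ± 4.44 to 254 ± 3.44 in H93 and 262 ± 4.54 in SAHA. ANKRD49, SMCR8 and MOSPD2, which face MRE11, TOP3A and FANCB, passed in neither comparison, and ZAR1L, which faces BRCA2, stayed under 1 FPKM. Annotated exons of ATM and NPAT share 143 bases, those of CHEK2 and HSCB 301 and those of MRE11 and ANKRD49 225. ATM, CHEK2 and MRE11 are therefore uncertain in the way given for XRCC3. Exons of ATR share 2048 bases with the pseudogene AC109992.1 on the opposite strand, which was not in the expression table.

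**Figure D5:**
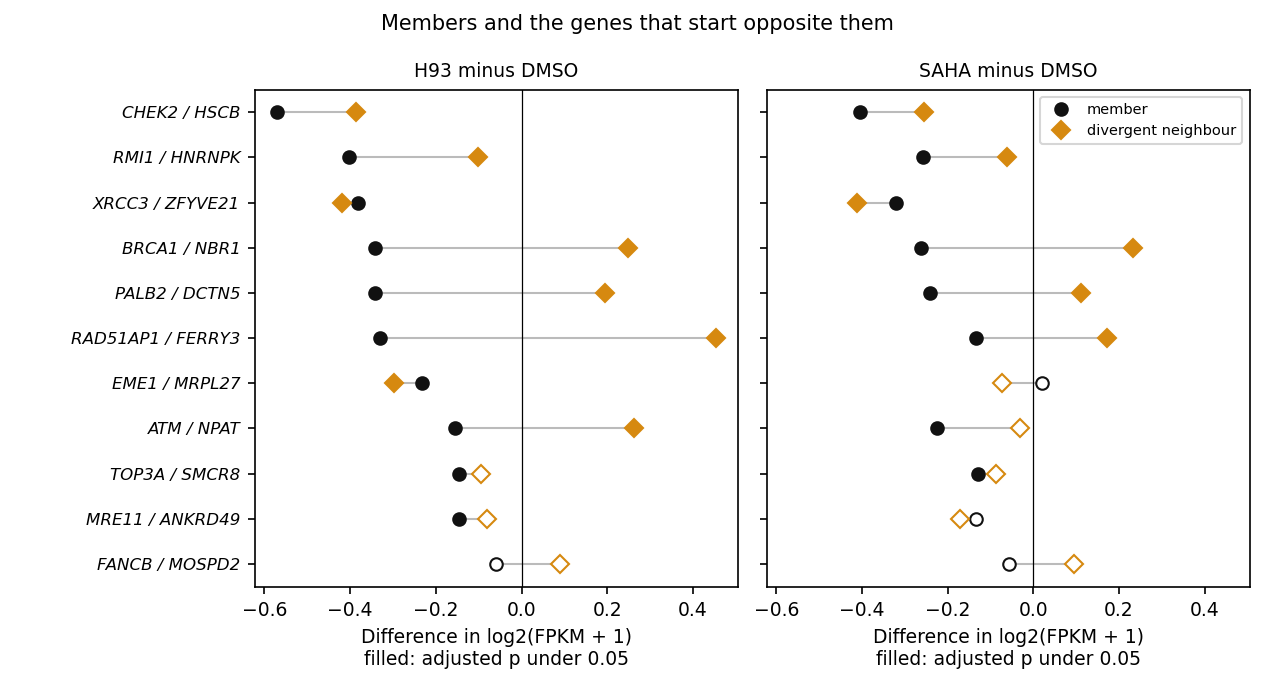
Difference in log2(FPKM + 1) from DMSO of 11 genes (circles) and of the gene that starts opposite each (diamonds), in H93 and in SAHA; filled points had a limma adjusted p under 0.05. The pairs of BRCA1, PALB2 and RAD51AP1 lie on both sides of 0 in both panels, and those of CHEK2, XRCC3 and RMI1 on the left only.

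Of 52 other tested recombination, Fanconi and checkpoint genes 21 (40.4%) fell and 10 (19.2%) rose with H93, where 35.0% and 34.9% of all tested genes did. With SAHA 15 (28.8%) fell and 9 (17.3%) rose, beside 31.4% and 27.4% of all tested genes. The medians of the 52 genes were -0.07 in H93 and -0.07 in SAHA. Those with the largest differences in H93 were the structure-specific nuclease subunit ERCC1, which rose from 12.5 ± 0.507 to 21.2 ± 0.700, the replication repair factor TONSL, which fell from 8.71 ± 0.399 to 5.08 ± 0.219, and the checkpoint clamp subunit RAD9A, which fell from 4.61 ± 0.384 to 2.64 ± 0.418. In SAHA ERCC1 was at 17.4 ± 0.924, TONSL at 5.68 ± 0.384 and RAD9A at 2.55 ± 0.157. Of 18 end joining genes, the competing route of break repair, 7 (38.9%) fell and 4 (22.2%) rose with each compound, with medians of -0.09 and -0.09. Among all tested genes these shares were 35.0% and 34.9% with H93 and 31.4% and 27.4% with SAHA. In the end joining list SHLD2, which protects ends from trimming, fell from 8.71 ± 0.628 to 5.47 ± 0.273 in H93. The ligase cofactor XRCC4 rose from 5.09 ± 0.277 to 8.06 ± 0.724 in H93.

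Genes of DNA replication and mitosis were counted beside the 38 genes. Among all tested genes 35.0% fell and 34.9% rose with H93, and 31.4% fell and 27.4% rose with SAHA. Of 30 replication genes 20 fell and 1 rose with H93 (median -0.23), 16 fell and 0 rose with SAHA (median -0.12), and 17 were lower in H93 than in SAHA. Of 20 mitosis genes 15 fell and 1 rose with H93 (median -0.16), 8 fell and 3 rose with SAHA (median -0.04), and 13 were lower in H93 than in SAHA. The share lower in H93 than in SAHA was 56.7% for replication and 65% for mitosis genes. It was 15.8% for the 38 genes and 13.9% for all tested genes. The median differences of H93 from SAHA were -0.114 for replication, -0.105 for mitosis, -0.0655 for the 38 genes and 0.0159 for all tested genes. The part of the cycling fraction of the cells in the values of the 38 genes was not tested.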

How the data were processed

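Per the labels' protocols, TRIzol was used for RNA and a TruSeq kit that keeps the strand of mRNA for the libraries. Trimmomatic 0.36, HISAT2, Cufflinks and GRCh38.p13 are named in the submitters' processing notes. Which annotation was counted, and whether by strand, is not given in the sources used here. The values are FPKM, fragments scaled for transcript length and library size, as deposited by the authors, 1 table for all 9 libraries, and are no counts, so no count model was used. Absolute depth is unknown, and no interval from counts is given.

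Genes with at least 1 FPKM in at least 3 libraries (11525 of 16772) were tested on log2(FPKM + 1) with limma 3.58.1 in R 4.3.3. The fit held all 9 libraries with 1 mean per group and a trended prior (6 residual and 6.05 prior degrees of freedom), and p-values were adjusted by Benjamini-Hochberg over all 11525 genes. The script was tested on simulated data. A gene was called at an adjusted p under 0.05. All 38 genes are accounted for, and of each list of other genes up to 3 with the largest called difference could be named. Neighbours were named where they start on the opposite strand within 1000 bases. The genes and lists were chosen with earlier results of these data known. Promoters were taken from RefSeq (GRCh38.p14), and positions and exon overlaps from GENCODE release 29. Alternatives were another pseudocount, other filters and scalings, only the 6 libraries compared, a replicate block and leaving out each library. The values of 1 marker gene are not reported here.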

Additional observations from a re-analysis of the deposited data

How the results depend on the processing

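Calls of 22 of the 27 genes that fell with H93, 17 of the 20 that fell with SAHA and 4 of the 6 lower in H93 than in SAHA held under every alternative in which the gene was tested. BRCA2, FANCC and PALB2, counted among the 22 and the 17, were not tested with a mean FPKM of at least 5. The calls that did not hold were ATR, FANCD2, FANCL, MRE11 and RAD51D for H93, RAD51AP1, RAD54L and XRCC2 for SAHA, and FANCA and RBBP8 between the compounds. The rise of UBE2T held under every alternative run in H93 but not in SAHA, and that of MUS81 in H93 did not. The cause was not tested. The count of genes higher in H93 was 1 with no filter on low values and between 1 and 3 when 1 library was left out. The median for H93 was -0.21 with a mean FPKM of at least 5, which tests 29 of the genes, and between -0.198 and -0.157 when 1 library was left out. The count higher in SAHA was 2 under median-ratio rescaling, quantile normalization and the replicate block, and between 0 and 3 when 1 library was left out. The count lower in H93 than in SAHA was 11 under quantile normalization, beside 1791 of all 11525 tested genes. The count higher lay between 0 and 1 when 1 library was left out. No scaling moved the median of all genes by over 0.1.

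Same-numbered libraries of different groups had correlations of deviations between -0.0975 and 0.0355, beside -0.0495 to 0.0697 for different-numbered ones. No pairing by number was seen in these values, which cannot show how the libraries were made. With the replicate block 2 genes rose with SAHA, MRE11 (limma adjusted p = 0.0447), RMI2 (0.0123) and MUS81 (0.0371) were gained there, and RMI1 (0.0396) and XRCC2 (0.0320) were gained between the compounds.

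Signs that changed belonged to differences that were not called. Between the compounds, under median-ratio rescaling and quantile normalization, these were BARD1 (-0.00551 and -0.0135), BRIP1 (-0.00325 and -0.0174), MUS81 (-0.00821 and -0.00690) and UBE2T (-0.0141 and -0.00752). When 1 library was left out the lowest and highest log2 differences were -0.0959 and 0.0458 for FANCF in H93. In SAHA they were -0.00543 and 0.0548 for EME1, -0.0504 and 0.00646 for FANCI, -0.0747 and 0.0289 for FANCL, -0.0243 and 0.0499 for RAD51C, and -0.0325 and 0.0530 for RAD54B. Between the compounds they were -0.0191 and 0.0216 for BARD1, -0.0513 and 0.0741 for BRIP1, -0.0310 and 0.0479 for FANCB, -0.00763 and 0.0567 for FANCE, -0.0529 and 0.00399 for FANCI, -0.0713 and 0.0407 for MRE11, -0.0231 and 0.0301 for MUS81, -0.0345 and 0.00886 for RAD50, -0.0342 and 0.000312 for TOP3A, -0.0441 and 0.0440 for UBE2T, and -0.104 and 0.00184 for XRCC3.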
